A study of Osmanthus fragrans with 6 samples.

Results

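Among 96596 assembled petal transcripts of Osmanthus fragrans var. semperflorens, 109 met the conditions below. They stayed within 1.5-fold from full to late full bloom of flowering round 1 and were at least 4-fold higher at abscission. They were chosen on these measured values. Levels are CPM, the counts of a transcript divided by the library's total count and scaled to 1000000 counts. A member had a late full level between 0.67 and 1.5 times its full level, an abscission level of at least 4 times the late full level and at least 10 CPM, and at least 5 counts at late full bloom. The 100 transcripts with the highest mean CPM over 5 libraries were to be left out, and none of them met the other conditions. The ratios among full 1, late full 1 and abscission 1 are therefore a description of the choice, and round 2 and initial 1 are where the members could differ freely.

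Petals came from trees flowering outdoors and collected in September, with 1 library for each of 6 points. Round 1 gave the initial (initial 1), full (full 1), late full (late full 1) and abscission (abscission 1) stages, and round 2 gave the initial (initial 2) and full (full 2) stages. All groups are the same variety, without treatment. Each library pooled 5 replicates, so no group has a replicate error, no p-value is given, and intervals cover counting error only. The 5 deep libraries held 17826687 to 39119106 counts, while initial 1 held 107466, where 1 count stands for 9.31 CPM and the floor of 3 counts for 27.9 CPM. In bulk petals, fewer cells of a type and less RNA per cell cannot be told apart.

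Abscission is the shedding of an organ at a preformed layer of cells, whose walls are loosened by secreted enzymes, and in many flowers it follows ethylene signalling. Petals nearing that point usually senesce, taking apart proteins, lipids and pigments and exporting the nutrients. This variety blooms in repeated rounds, so full bloom of a later round can be set beside the first. The deposited IDs carry no gene names. No member could therefore be given a function, no marker gene could be used to check the petal label, and no sequence is shown.

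The members took up 0.772% of all counts in abscission 1 (exact 95% interval 0.768 to 0.776%), against 0.126% in late full 1. Their share was 0.125% in full 1. In round 2 it was 0.345% in full 2 (0.342 to 0.348%), against 0.175% in initial 2 (0.174 to 0.176%). Initial 1 held 209 counts of the members, a share of 0.194% (0.169 to 0.223%). Abscission 1 carried the highest summed level, as the choice makes likely, and full 2 the next, at 0.447 times that of abscission 1.

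The median member stood at 28.5 CPM in abscission 1, against 4.09 in late full 1 and 3.74 in full 1. Its median in full 2 was 12.3 CPM, against 4.65 in initial 2. Abscission levels reached 1307 CPM, with 13 members at 100 CPM or more and 38 under 20 CPM. The 8 highest members held 49.6% of the members' abscission counts and the highest 1 held 16.9%, so summed levels speak mostly for few transcripts.

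By the choice, the abscission to late full ratio had a median of 6.48, with quartiles of 4.85 and 9.72 and a range of 4.02 to 36.2. It was under 5 in 29 members and at least 16 in 6. Over all transcripts with at least 50 counts in that pair, 3.84% were at least 4-fold higher in abscission 1. Late full counts were 20 at the least and 106 at the median, and the lower 95% limit of the ratio reached 4 in 84 of the 109 members. Just inside the threshold were c153578_g2_i1 at 4.02, c158840_g1_i1 at 4.04 and c148964_g3_i1 at 4.08. Just outside it were c155941_g1_i2 at 3.98, c140810_g1_i1 at 3.97 and c150693_g1_i1 at 3.97, of which c150693_g1_i1 reached 893 CPM in abscission 1.

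The label of transcripts switched on only at abscission held in part. Abscission 1, which the choice makes high, was the highest of the 5 deep libraries for 97 members, full 2 for 9 and initial 2 for 3. With TMM scaling, which evens the bulk of transcripts between libraries, these counts were 105, 2 and 2, and with DESeq2 size factors 106, 1 and 2. The matching shares over all transcripts were not computed, so these counts only describe the chosen members. Each member was next set against its low level of round 1, the mean of full 1 and late full 1, using a 2-fold limit chosen after the data were seen. Both of these libraries took part in the choice, which can favour calls above that level. In full 2 but not in initial 2, 64 of the 109 members were at least 2-fold above that level. Another 11 were so in both round 2 libraries and 10 in initial 2 alone. The remaining 24 stayed below 2-fold in both, so by this limit alone they were raised only at abscission among the 5 deep libraries. The limit does not make them level within round 2. Of the 24, c131057_g1_i1 had a ratio of full 2 to initial 2 of 7.80 and c141279_g1_i1 of 0.242. Over all 29336 transcripts with such a level, 7.95% were raised in full 2 alone, 3.23% in both, 12% in initial 2 alone and 76.8% in neither. Among the 6385 transcripts as level as the members from full to late full bloom but under 4-fold at abscission, these shares were 4.57%, 0.501%, 2.83% and 92.1%. The 10 of 109 members raised in initial 2 alone lay below the share of all transcripts and above that of the 6385. The limit is a division of a continuous range, since full 2 lay between 1.5 and 2.5 times the low level in 30 members and initial 2 in 15.

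**Figure D1:**
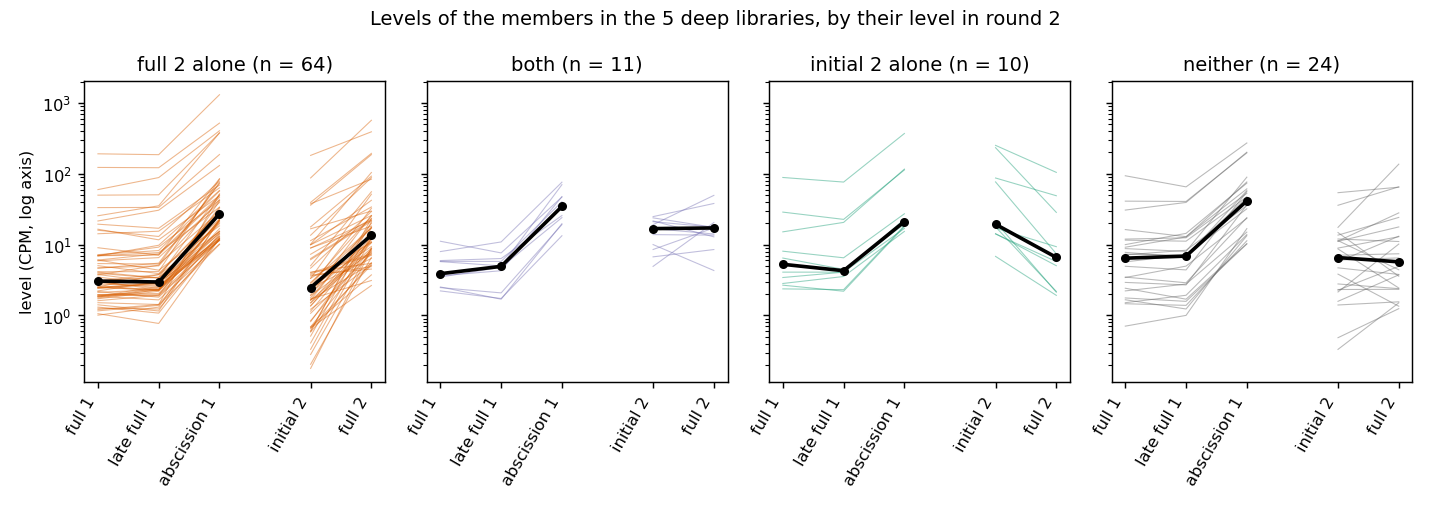
Levels (CPM, log axis) of the 109 members in the 5 deep libraries, 1 thin line per member and a black line for the median, in 4 panels by whether full 2 or initial 2 reached 2 times the mean of full 1 and late full 1. The 64 members of the first panel have medians of 13.6 CPM in full 2 and 2.47 CPM in initial 2, and the 10 members raised in initial 2 alone have medians of 6.60 CPM in full 2 and 19.4 CPM in initial 2.

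The most abundant member, c159313_g1_i1, shows the commonest course. Over the 4 stages of round 1 it stood at 214 (23 counts), 191, 186 and 1307 CPM, and in round 2 at 392 CPM in full 2, against 182 in initial 2. Its level held between 182 and 191 CPM in full 1, late full 1 and initial 2. Initial 1 was 1.12 times full 1, with a wide 95% interval of 0.708 to 1.68. Full 2 was 2.15-fold above initial 2 (95% interval 2.08 to 2.22). Transcript c156787_g1_i3 stood at 37.2 (4 counts), 123, 122 and 520 CPM over the 4 stages of round 1, and at 570 CPM in full 2, against 87.4 in initial 2. It was as high at full bloom of round 2 as at abscission of round 1, and 6.52-fold higher in full 2 than in initial 2 (6.27 to 6.77).

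Transcript c155205_g2_i1 stood at 37.2 (4 counts), 59.9, 88.5 and 405 CPM over round 1, and at 194 CPM in full 2, against 39.5 in initial 2. Transcript c152073_g1_i1 stood at 9.31 (1 count, below the floor), 49.96, 50.5 and 378 CPM over round 1, and at 186 CPM in full 2, against 36.1 in initial 2. In both, full 2 was about 5-fold above initial 2, with ratios of 4.92 (4.63 to 5.22) for c155205_g2_i1 and 5.17 (4.86 to 5.50) for c152073_g1_i1. The level of c156351_g1_i1 was 377 CPM in abscission 1, 10.7-fold above the 35.3 CPM of late full 1, while full 2 reached 84.0 CPM, against 37.8 in initial 2. For c159647_g2_i1 the abscission level was 202 CPM, against 39.4 in late full 1, and full 2 held 65.4 CPM, against 35.9 in initial 2. This full 2 level was 1.86 times its low level of round 1, under the 2-fold limit.

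Among the 8 most abundant members, initial 2 lay farthest from the low level of round 1 in c177982_g1_i1 and c131057_g1_i1. It was 3.05 and 0.220 times that level. Transcript c177982_g1_i1 stood at 372 (40 counts), 88.7, 76.4 and 371 CPM over round 1, and at 105 CPM in full 2, against 252 in initial 2. Its initial and abscission levels were high and its full and late full levels low. Transcript c131057_g1_i1 stood at 121 (13 counts), 93.8, 65.4 and 272 CPM over round 1, and at 137 CPM in full 2, against 17.5 in initial 2. Full 2 was 7.80-fold above initial 2 (7.17 to 8.50), its lowest library.

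**Figure D2:**
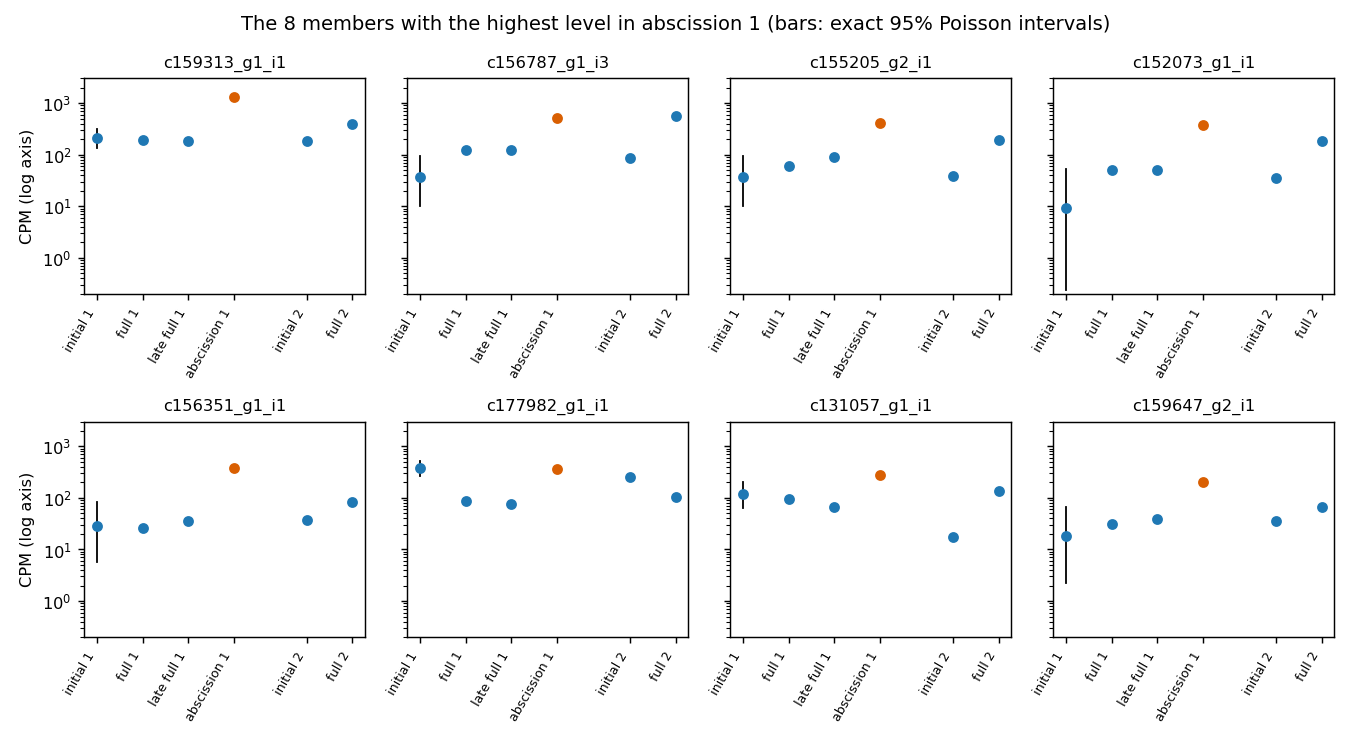
Levels (CPM, log axis) of the 8 members with the highest abscission level in all 6 libraries, with exact 95% Poisson intervals of the counts as bars and abscission 1 in orange. Abscission 1 is above full 1 and late full 1 in each panel by the choice of members, while initial 2 is near the low level for c159313_g1_i1 (182 CPM) and near the abscission level for c177982_g1_i1 (252 CPM).

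Full against initial bloom of round 2 is the comparison that shares no library with the ratios that chose the members. Of 107 members with at least 50 counts in the pair, 46 (43.0%) were at least 4-fold higher in full 2 and 5 (4.67%) at least 4-fold lower. Over all 25437 transcripts with that many counts, 5.96% were at least 4-fold higher and 12.4% at least 4-fold lower. The median log2 ratio of full 2 to initial 2 was 1.57 over the 109 members (quartiles 0.26 and 2.72, with a prior count of 2), against -0.38 over 29728 transcripts that reached 1 CPM in a deep library. The 95% counting interval of the ratio lay above 1 in 81 members, below 1 in 19 and held 1 in 9. Over all 29728 transcripts it lay above 1 in 27.4% and below 1 in 50.5%. With TMM scaling each ratio of full 2 to initial 2 is 1.26 times as large, the median of all transcripts becomes -0.05 and that of the members 1.91.

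Many transcripts in that background were low at abscission, which the members could not be. Among the 9836 transcripts with at least 10 CPM in abscission 1 and 5 counts in late full 1, the 100 most abundant left out, 7.09% of those with enough counts were at least 4-fold higher in full 2 than in initial 2 and 1.48% at least 4-fold lower. In the 6385 level transcripts under 4-fold at abscission, which are among these, 3.35% were at least 4-fold higher in full 2 and the median log2 ratio was -0.11. A further 227 transcripts were at least 4-fold higher at abscission but had already passed 1.5 times their full level at late full bloom, and 51.7% of them with enough counts were at least 4-fold higher in full 2. In 78 that dipped below 0.67 times at late full bloom, these shares were 34.6% higher and 12.8% lower. The members, at 43.0%, lay between both of these sets, and the differences among the 3 sets were not tested.

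**Figure D3:**
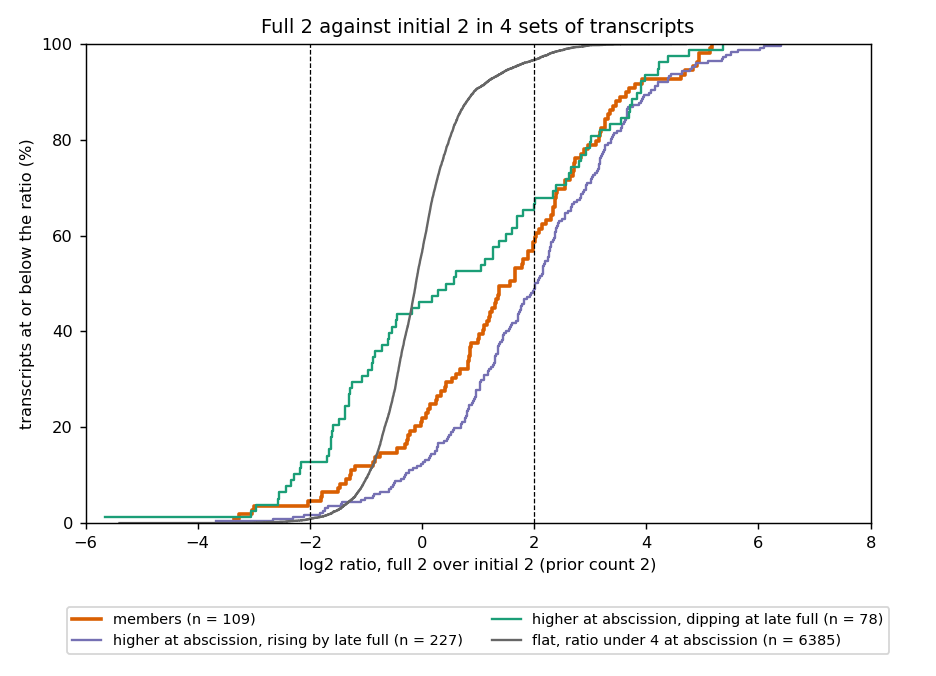
Share of transcripts (%) at or below each log2 ratio of full 2 to initial 2 in the 109 members, the 227 transcripts already rising by late full bloom, the 78 dipping there and the 6385 level ones under 4-fold at abscission, with dashed lines at 4-fold. The medians are 1.57, 2.02, 0.51 and -0.11.

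The highest ratios of full 2 to initial 2 belonged to members that were scarce at the start of round 2. Ranking by this ratio favours low levels in initial 2. Transcript c157335_g2_i1 had 167 counts (8.68 CPM) in full 2 and 7 counts (0.179 CPM) in initial 2, a 48.5-fold difference (95% interval 23.0 to 123). Full 1 held 1.31, late full 1 held 1.08 and abscission 1 held 12.4 CPM, so initial 2 was its lowest deep library. Transcript c93038_g1_i1 stood at 23.6 CPM in full 2 and 0.588 in initial 2, 40.1-fold apart (26.4 to 64.0), with 4.14, 4.17 and 84.0 CPM over full 1, late full 1 and abscission 1. A further 4 had ratios of 33.3 to 36.9.

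Of those, c137084_g1_i1 also had the largest abscission to late full ratio of all members. It stood at 51.7 CPM in abscission 1 (921 counts), against 1.43 in late full 1 (37 counts) and 1.21 in full 1, and at 12.3 CPM in full 2, against 0.332 in initial 2. Transcript c139621_g1_i1 reached the same 51.7 CPM in abscission 1, against 3.47 in late full 1, and 20.8 CPM in full 2, against 0.614 in initial 2. The level of c143876_g1_i1 was 17.3 CPM in full 2, against 0.511 in initial 2, and that of c64925_g1_i1 was 13.6 CPM, against 0.409. None of these 6 had more than 2 counts in initial 1. Their levels in initial 2 were 0.179 to 0.614 CPM, below their own levels in full 1 of round 1, which the ranking also favours.

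The members with the largest abscission ratios differed in the size of their round 2 ratio. Transcript c160024_g7_i6 was 19.3-fold higher in abscission 1 than in late full 1, at 22.4 against 1.16 CPM, and full 2 held 2.65 CPM, against 0.665 in initial 2, a ratio of 3.99 (95% interval 2.44 to 6.66). For c153291_g1_i2 the abscission level was 16.8 CPM, against 1.00 in late full 1, and full 2 held 1.51 CPM, against 0.332 in initial 2, a ratio of 4.54 (2.28 to 9.50). Transcript c106781_g1_i1 was 17.8-fold higher in abscission 1 than in late full 1 and 10.5-fold higher in full 2 than in initial 2 (7.62 to 14.8). Across the 109 members, the log2 ratios of abscission 1 to late full 1 and of full 2 to initial 2 were weakly related (Pearson r 0.25, Spearman rho 0.19). The ratios share no library, but each point is 1 transcript in the same pools, and low counts widen both axes. Among members with an abscission ratio of at least 8, 18 of 37 were at least 4-fold higher in full 2 than in initial 2, against 28 of 72 with a smaller ratio.

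**Figure D4:**
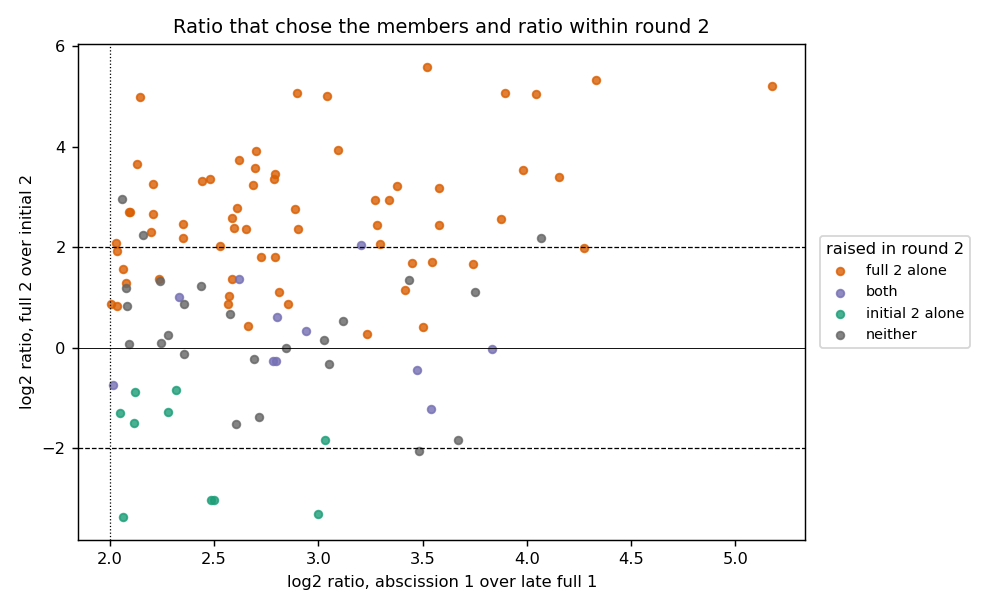
Log2 ratio of full 2 to initial 2 against the log2 ratio of abscission 1 to late full 1 that chose the members, 1 point per member, coloured by which round 2 library was raised, with dashed lines at 4-fold and a dotted line at the choice threshold. Of the 6 members above 33-fold in round 2, c143876_g1_i1 has an abscission ratio of 7.46 and the others lie between 11.5 and 36.2, and r is 0.25 over all members.

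Full bloom was also compared between the rounds, although full 1 took part in the choice. Of 108 members with at least 50 counts, 31 were at least 4-fold higher in full 2 than in full 1 and 0 at least 4-fold lower, where 5.34% of all transcripts were higher and 6.01% lower. The median log2 ratio was 1.53 for the members, against -0.26 for all transcripts. The count of 31 depends on the scaling, with 48 under TMM (6.55% of all transcripts) and 50 under DESeq2 size factors (6.60%). Initial 2 was above full 1 in some members and below it in others. The median log2 ratio of initial 2 to full 1 was 0.02 for the members, with quartiles of -0.95 and 0.71, against quartiles of -0.31 and 0.57 for all transcripts. Of the 109 members 64 were within 2-fold, 20 at least 2-fold higher and 25 at least 2-fold lower, against 23318 of the 29728 transcripts within 2-fold. Of 102 members with enough counts, 7 were at least 4-fold higher and 5 at least 4-fold lower. Over all transcripts 3.25% were higher and 1.63% lower.

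Against abscission 1, which the choice makes high, full 2 reached 40.9% of the level at the median, with quartiles of 24.0% and 61.4%. It was at least 4-fold lower in 30 of 109 members, where 3.30% of all transcripts were. Over all 29728 transcripts full 2 was above abscission 1 in 18448 (with a prior count of 2). It was at least 4-fold higher in 4.99% of those with at least 50 counts in the pair. In 9 members full 2 was level with or above abscission 1, by at least 4-fold in 0. The most marked was c161107_g3_i2, at 25.8 CPM in full 2 and 10.2 in abscission 1, with 1.94 in initial 2. Next came c154352_g2_i1, at 51.5 CPM in full 2 and 42.8 in abscission 1, c237687_g1_i1, at 22.0 CPM in full 2 and 18.4 in abscission 1, and c146350_g1_i1, at 92.7 CPM in full 2 and 78.8 in abscission 1. The count of 9 rests on total-count scaling. TMM scaling lowers every ratio of full 2 to abscission 1 to 0.832 times its value and leaves 2 of the 9, c161107_g3_i2 at a ratio of 2.10 and c154352_g2_i1 at 1.00. DESeq2 size factors leave c161107_g3_i2, at 2.06.

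At the other end, c141279_g1_i1 stood at 3.59 CPM in full 2, against 89.7 in abscission 1, the widest such gap of all members (95% interval of the ratio of abscission 1 to full 2, 19.7 to 32.3). Full 1 and late full 1 held 8.79 and 8.03 CPM and initial 2 held 14.8, so its lowest deep library was full 2. Transcript c156061_g2_i1 was 22.9-fold lower in full 2 (17.1 to 31.4), at 2.44 CPM, against 55.9 in abscission 1, with 4.95 and 4.40 CPM in full 1 and late full 1 and 8.69 in initial 2. Both were at least 10-fold above late full 1 at abscission and stood below their full 1 level in full 2. Transcript c50771_g2_i1 was 10.7-fold lower in full 2 than in abscission 1, at 1.25 CPM in full 2 and 13.4 in abscission 1, and c153291_g1_i2 11.2-fold lower. These 4 belong to the 24 members that stayed below 2-fold of their low level in both round 2 libraries, a group with a median of 41.5 CPM in abscission 1, 6.57 in initial 2 and 5.72 in full 2.

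The 5 members that were at least 4-fold lower in full 2 than in initial 2 were c125039_g1_i1, c161200_g3_i7, c155482_g1_i2, c86422_g1_i1 and c141279_g1_i1. In 4 of them initial 2 was more than 4-fold above the low level of round 1, while c141279_g1_i1, with 1.76 times that level in initial 2, was low in full 2 instead. Transcript c155482_g1_i2 stood at 242 (26 counts), 15.2, 20.6 and 117 CPM over round 1, and at 28.5 CPM in full 2, against 234 in initial 2. Transcript c125039_g1_i1 stood at 74.4 CPM in initial 1 (8 counts), 8.08, 6.52 and 27.3 CPM over the rest of round 1, and 7.43 CPM in full 2, against 76.8 in initial 2. Both initial libraries were above abscission 1 in these 2 members. In full 2, c125039_g1_i1 was at 7.43 CPM, against 8.08 in full 1, and c155482_g1_i2 at 28.5 CPM, against 15.2 in full 1.

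Transcript c161200_g3_i7 had 21.0 CPM in initial 2 and 18.5 in abscission 1, against 2.13 to 2.37 CPM in full 1, late full 1 and full 2, and 4 counts in initial 1. For c86422_g1_i1 the level was 17.8 CPM in initial 2 and 22.9 in abscission 1, against 2.18 in full 2 and 4.09 in both full 1 and late full 1, with 1 count in initial 1. Transcript c132565_g1_i1 took another course, with full 2 also raised, at 4.42 times the low level of round 1. It stood at 47.6 CPM in abscission 1, 23.9 in initial 2 and 17.5 in full 2. Full 1 held 3.64 CPM and late full 1 held 4.28, and initial 1 had 5 counts (46.5 CPM).

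Initial 1, which took no part in the choice, could be read for few single members. It had counts for 54 of the 109, of which 37 had 1 or 2, and 8 had at least 5. The 95% counting interval of the ratio of initial 1 to full 1 lay above 1 in 8 members and below 1 in 2, c156787_g1_i3 and c156802_g1_i1. Over all transcripts it lay above 1 in 5.42% and below 1 in 2.44% and nothing is read from the members' counts, which lie near these shares. In 7 of the 8 initial 2 was also above full 1 in the same sense. The same held for 1047 of the 1612 transcripts, among all 29728, with initial 1 above full 1. Over all 29728 transcripts both were above full 1 in 3.52%, beside 7 of the 109 members, and both ratios share full 1. The 7 were c177982_g1_i1, c155482_g1_i2, c160191_g2_i2, c132565_g1_i1, c125039_g1_i1, c161200_g3_i7 and c160745_g2_i1. The ratios of initial 1 to full 1 ran from 4.19 (2.99 to 5.73) for c177982_g1_i1 at the lowest to an interval of 10.3 to 23.9 for c155482_g1_i2 at the highest. Those of initial 2 to full 1 were 2.84 (2.70 to 2.99) and 15.4 (13.7 to 17.4) for the same members. These are 109 intervals with no adjustment for their number.

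Summed counts gave initial 1 more weight, in groups formed on full 2 against initial 2, which shares no library with initial 1 over full 1. The 5 members at least 4-fold lower in full 2 had 41 counts in initial 1, a summed level 9.91 times that of full 1 (95% interval 7.06 to 13.6). Without c155482_g1_i2 the ratio was 5.98 (3.32 to 9.97) on 15 counts. For the 46 members at least 4-fold higher in full 2 it was 0.771 (0.562 to 1.03). Among the other transcripts with the same minimums at abscission and late full bloom, it was 1.85 (1.76 to 1.93) for the 140 at least 4-fold lower in full 2 and 0.409 (0.386 to 0.432) for the 649 at least 4-fold higher. Full 1 took part in the choice of the members.

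**Figure D5:**
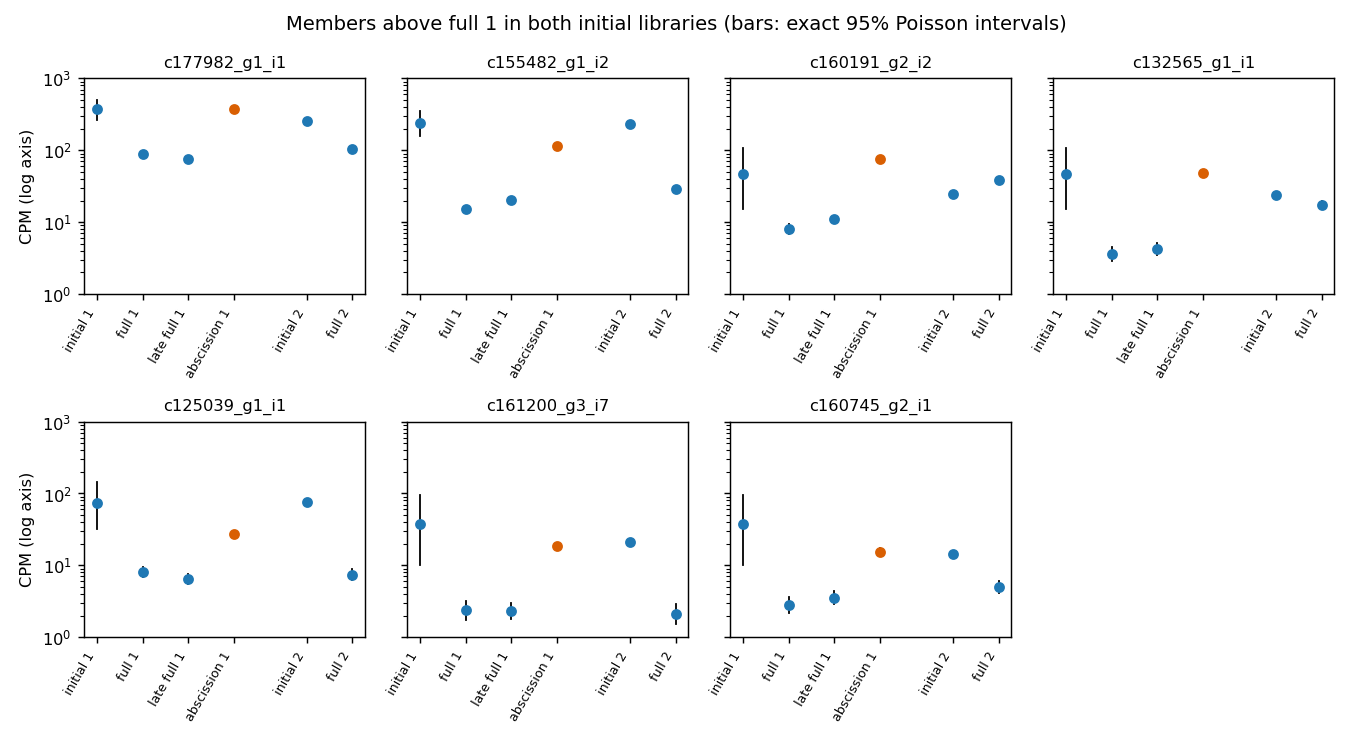
Levels (CPM, log axis) of the 7 members whose counting intervals placed both initial 1 and initial 2 above full 1, in all 6 libraries, with exact 95% Poisson intervals as bars and abscission 1 in orange. In all 7 panels full 1 and late full 1 are the low points of round 1, and c155482_g1_i2 stands at 242 CPM in initial 1 and 234 CPM in initial 2, against 117 CPM in abscission 1.

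The transcript IDs have the form of a component, a gene and an isoform number, and transcripts that share a component may be related in sequence. The 109 members fell into 106 components, and 82.6% ended in the first isoform number, against 71.8% of all transcripts that reached 1 CPM. Component c155205 held c155205_g2_i1 and c155205_g1_i1, at 405 and 12.0 CPM in abscission 1, both about 5-fold higher in full 2 than in initial 2. Component c145654 held c145654_g5_i1 and c145654_g6_i1, with full 2 to initial 2 ratios of 6.51 and 3.49. Component c140489 held c140489_g2_i1 and c140489_g1_i1, with ratios of 3.16 and 1.45. How reads of near-identical transcripts were divided is not given in the sources used here, so these pairs are not independent measurements.

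A further 78 transcripts shared a component with a member without being members. Their abscission to late full ratios come from the contrast of the choice and are given as values. Of the 53 with at least 50 counts in abscission 1 and late full 1, 15 (28.3%) were at least 4-fold higher in abscission 1 and 0 at least 4-fold lower. Their median log2 ratio was 1.19, against -0.27 for all transcripts with that many counts. The most abundant of the 15 at abscission was c152073_g2_i1, with a ratio of 4.14, which stood at 1386 CPM in abscission 1, 334 in late full 1 and 26.7 in full 1, and so was already higher by late full bloom, where its component mate c152073_g1_i1 was level. Likewise c156061_g1_i2 reached 153 CPM in abscission 1, against 22.7 in late full 1 and 7.88 in full 1, and c146633_g1_i1 reached 147 CPM, against 19.6 and 6.21. Transcript c106781_g2_i1 had 291 counts in abscission 1, against 3 in late full 1 and 0 in full 1.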

How the data were processed

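Petal RNA was extracted with TRIzol, enriched for messenger RNA on poly-T beads and sequenced by Illumina chemistry, per the labels' protocols. The series' design text states that 5 replicates were pooled for each stage. The authors deposited estimated counts for 96596 de novo assembled transcripts in 6 columns, unscaled, with a few decimal values that were rounded before use. Per the submitters' processing notes, CASAVA 1.7 was used. Which assembler, aligner and counter were used is not given in the sources used here.

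CPM used column totals. All transcripts means those with at least 1 CPM in a deep library. A 4-fold difference was counted with at least 50 counts in the pair. Intervals are exact 95% Clopper-Pearson limits on pairs of counts and exact Poisson or binomial limits on sums. TMM factors came from edgeR 4.0.16 and size factors from DESeq2 1.42.0 in R 4.3.3, and other steps used SciPy 1.17.1, NumPy 2.4.6, pandas 2.3.3 and matplotlib 3.10.9 under Python 3.11.15.

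Members and rules were chosen with earlier results of these data known. Named members are the 8 highest at abscission, the 6 with the largest abscission ratio, the 6 highest and 6 lowest by full 2 to initial 2, the 4 highest and 4 lowest by full 2 to abscission 1, the 4 highest by initial 2 to full 1, the 4 with most counts in initial 1, component mates and the 3 on each side of the threshold. Others were named after their values were seen.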

Additional observations from a re-analysis of the deposited data

Results flagged for a closer look

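For 2 members the step from initial to full bloom ran in opposite directions in the 2 rounds, by counting intervals that did not include 1. Transcript c12004_g1_i1 had a ratio of full 2 to initial 2 of 5.96 (95% interval 4.80 to 7.43), while full 1 was 0.134 times initial 1 (0.0441 to 0.664, on 3 counts in initial 1). Transcript c160191_g2_i2 had a ratio of full 2 to initial 2 of 1.53 (1.39 to 1.69), while full 1 was 0.172 times initial 1 (0.0720 to 0.536, on 5 counts in initial 1). Over all transcripts the interval lay above 1 in 5.42% for initial 1 over full 1 and in 27.4% for full 2 over initial 2. The share of all transcripts with both was not computed, so nothing about the members is read from the count of 2. Full 1 took part in the choice, and the 3 counts of c12004_g1_i1 in initial 1 are the floor, 27.9 CPM. The difference between rounds was not tested, and 109 members were looked at.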

How the results depend on the processing

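No paired analysis was possible because each group is 1 library. Of 88 alternative values for counts and medians, 60 stayed close to the reported one and 28 moved further. Close means a count within 1.5 times or a median within 0.05. Of the medians 0 changed sign, which a count cannot do. Alternatives that ask for 20 counts at late full bloom could not move, since every member had at least 20. The tally is therefore not a measure of stability. The number of members was 167 with TMM factors (86 of the 109 among them), 174 with DESeq2 size factors (87 among them), 63 with a window of 0.8 to 1.2, 173 with a window of 0.5 to 2, 37 at 8-fold and 71 with a minimum of 20 CPM. TMM scaling raises each late full to full ratio by 1.18 times, which moves members out of the window. For full 2 over initial 2, 23 of 107 members were at least 8-fold higher, against 2.59% of all transcripts. At least 2-fold lower were 13 of 107, fewer than the 31.1% of all transcripts. The median was 1.91 with TMM and 1.95 with DESeq2 factors. For full 2 over full 1, 48 (TMM), 50 (DESeq2), 75 (2-fold) and 5 (8-fold) of 108 members were higher. The shares of all transcripts were 6.55%, 6.60%, 12.2% and 2.78%. The medians of the members were 1.80 with TMM and 1.81 with DESeq2 factors. For initial 2 over full 1, 20 of 102 were at least 2-fold and 3 at least 8-fold higher, against 12.4% and 1.13% of all transcripts. For full 2 over abscission 1, 70 of 109 were at least 2-fold and 9 at least 8-fold lower, against 9.23% and 1.25% of all transcripts. The medians of the members were -1.55 (TMM), -1.57 (DESeq2) and -1.49 (totals without the 100 highest transcripts). For abscission 1 over late full 1, these medians were 2.93, 2.97 and 2.74. With 1 member per component, 45 of 104 were at least 4-fold higher in full 2 than in initial 2, against 5.96% of all transcripts. Added after the data were seen were unrounded counts, a minimum of 5 counts, 1 member per component, and the scaling of the 2-fold groups and of the highest library. TMM put 70 members in full 2 alone and 21 in neither, and full 2 was at or above abscission 1 in 2 members with TMM and 1 with DESeq2 factors, in place of 9. Shares over all transcripts were not computed for these scaled counts. The depth of initial 1 limits single members there to levels above 27.9 CPM.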
